A study of Mus musculus with 21 samples.

Results

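The genes described here are 9 core genes of the disease-associated microglia program: Trem2, Tyrobp, Clec7a, Itgax, Cst7, Spp1, Gpnmb, Lgals3 and Lyz2. They were taken by symbol from the 25127 genes of a table of mouse spinal cord RNA, and all 9 were present. The study deleted Tardbp, which encodes the RNA-binding protein TDP-43, with Cnp-Cre, a recombinase driven from a gene of the oligodendrocyte lineage. All mice were C57BL/6 and each library came from a separately numbered mouse. Control mice were Tardbp-fl/fl and carried no Cre. Heterozygous mice (cHET) were Cnp-Cre; Tardbp-fl/+, and knockout mice (cKO) were Cnp-Cre; Tardbp-fl/fl. The younger mice were 21 days old (P21), 4 of each genotype, with 2 females and 2 males in each. The older mice (P60) numbered 3 of each genotype: the controls were female and 74 days old, the cHET mice male and 60 to 65 days old, and the cKO mice male and 61 to 64 days old. At P60 the contrast with control therefore carries sex and age as well as genotype, and these cannot be told apart. All P21 libraries were made with one kit and all P60 libraries with another, so age and kit cannot be told apart either.

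Microglia are the resident macrophages of the central nervous system. Around dying cells, amyloid or damaged myelin they are known to lower a set of homeostatic genes and to raise a set used for lipid uptake, lysosomal digestion and adhesion, often called the disease-associated microglia program. TREM2 is a surface receptor for lipids and lipoproteins that has no signalling tail of its own. It signals through the adaptor TYROBP (DAP12), which recruits the kinase SYK, and later steps of the program are known to need TREM2.

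Values are the authors' normalized scaled reads per base, so levels can be compared between genes. They were scaled by the authors within an age, so levels are not compared across ages. The library sums lay between 26.9 M and 29.2 M for P21 and between 12.5 M and 13.8 M for P60, and read depth is unknown. Replicates correlated across genes at 0.975 to 0.981 at P21 and at 0.979 to 0.982 at P60. Mitochondrial genes took 6.41% to 8.12% of the values at P21 and 10.2% to 17.9% at P60, where the 2 highest shares were in cKO libraries. Tardbp was -0.29 (log2, cKO minus cHET, adjusted p = 0.0025) at P21 and -0.20 (adjusted p = 0.040) at P60, where the authors' deposited table did not call it (q = 0.063). Against control it was -0.37 (adjusted p = 3.3e-04) at P21 and -0.14 (adjusted p = 0.14) at P60. In cHET against control Tardbp was -0.08 (adjusted p = 0.81) and 0.06 (adjusted p = 0.99). Whole cord also holds many cells outside the Cnp-Cre lineage. For 8 of the 9 genes the per-library values gave the mean value in the authors' own comparison tables. Lgals3 did not: its geometric mean (of value + 0.5) was 5.11 at P21 in the per-library values and 231 in the authors' deposited table, and 1.26 against 154 at P60. Every Lgals3 level below is therefore uncertain, and for cKO against cHET the effect from the authors' deposited table is given too. Of all genes given in both sources, 901 of 17384 at P21 and 871 of 16239 at P60 differed, Lgals3 among them. The limit was 1e-06 in the mean natural log value.

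On GRCm38 (GENCODE M21), Trem2 is at chr17:48346401-48354147, Tyrobp at chr7:30413760-30417585, Clec7a at chr6:129461591-129472779 on the minus strand, Itgax at chr7:128129547-128150657 and Cst7 at chr2:150570415-150578944. Spp1 is at chr5:104435118-104441050, Gpnmb at chr6:49036546-49070929, Lgals3 at chr14:47367751-47386160 and Lyz2 at chr10:117277331-117282321 on the minus strand. Those with no strand given are on the plus strand. All are annotated as protein coding except Clec7a, which the annotation types as a polymorphic pseudogene.

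Because these genes moved together (below), their promoters were searched for the sites of factors known from myeloid cells. RefSeq windows on GRCm38.p6 of 300 bases, 250 before to 50 after the transcript start, existed for 8 of the 9 genes, 10 windows in all. A gene is counted below if any of its windows matched, while the percentages are of windows. The AP-1-like letters TGANTCA, which read the same on both strands, stood in 4 of the 8 (Trem2, Cst7, Itgax and Gpnmb) and in 7.81% of all 32851 windows. The usual AP-1 site has C or G in the middle, and TGACTCA, searched on both strands, stood in 2 of the 8 (Itgax and Gpnmb) and in 5.2% of all windows. The PU.1 core GGAAGT, on either strand, was in 4 of the 8 (Cst7, Itgax, Lyz2 and Spp1) and in 23.8% of all windows, and the longer GAGGAAGT, which contains it, was in Spp1 and in 3.2% of all windows. The MiT/TFE letters CACGTG and TCACATG, searched on both strands, stood in none of the 8 genes and in 7.15% and 3.99% of all windows. The 4 promoters with the AP-1-like letters are shown here from 100 bases before to 20 bases after the start, 5′ to 3′ on the gene's strand (plus in all 4), with matches in capitals. They are Trem2 at chr17:48346301-48346420, Cst7 at chr2:150570315-150570434, Itgax at chr7:128129450-128129569 and Gpnmb at chr6:49036418-49036537.
Trem2: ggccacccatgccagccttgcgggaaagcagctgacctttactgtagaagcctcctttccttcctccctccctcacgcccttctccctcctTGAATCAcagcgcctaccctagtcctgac
Cst7: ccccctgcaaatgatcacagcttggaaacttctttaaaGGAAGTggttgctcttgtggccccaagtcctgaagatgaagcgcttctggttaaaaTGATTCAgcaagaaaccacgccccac
Itgax: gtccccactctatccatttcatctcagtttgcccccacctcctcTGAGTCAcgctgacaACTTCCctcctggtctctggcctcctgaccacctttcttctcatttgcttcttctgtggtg
Gpnmb: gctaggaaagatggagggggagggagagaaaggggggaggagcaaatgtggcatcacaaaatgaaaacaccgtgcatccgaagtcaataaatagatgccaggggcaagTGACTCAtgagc
The capitals mark an AP-1-like match in each of the 4, and also a PU.1 core in Cst7 (upstream of the AP-1-like match) and, on the other strand, in Itgax (downstream of it). No binding was measured here, and these matches describe the letters only.

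Every gene of the set that could be tested rose in the knockout cord. At P21 all 9 genes passed the test against cHET, Lgals3 having entered it only through its cKO libraries, and every cKO library lay above every cHET library for each, where 12.6% of the 17989 genes tested were called higher and 12.7% were higher without overlap. At P60 all 8 that could be tested rose without overlap, against 13.4% of 16833 genes called higher and 20.6% higher without overlap. The P21 differences ran from 2.12 (Spp1) to 5.33 (Gpnmb) on the log2 scale with a median of 4.88, and the P60 differences from 1.77 (Spp1) to 6.03 (Gpnmb) with a median of 5.45. Over all tested genes the medians were -0.0076 and 0.0033. Against control the same 9 rose at P21 (14.6% of all genes called higher, 15.0% higher without overlap) and the same 8 at P60 (14.5% and 22.0%). Differences are of log2(value + 0.5) and so understate the change of genes near 0, and ± gives the moderated standard error from limma. Markers of other cells of the cord moved with the set: at P21 10 of 10 neuron markers and 11 of 15 mature oligodendrocyte markers were lower against cHET (1 of the 15 was higher), and 7 of 10 astrocyte markers were higher. At P60 these counts were 5 of 10 lower, 13 of 15 lower (2 higher) and 4 of 10 higher. The summed astrocyte markers ran from 165591 to 174723 in P21 cHET and from 323583 to 371684 in P21 cKO libraries, and the summed neuron markers from 144750 to 149248 and from 114772 to 128068. The part of these shifts in the 9 genes was not tested. In whole tissue a rise in the number of cells that express a gene and a rise in RNA per cell cannot be told apart.

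**Figure D1:**
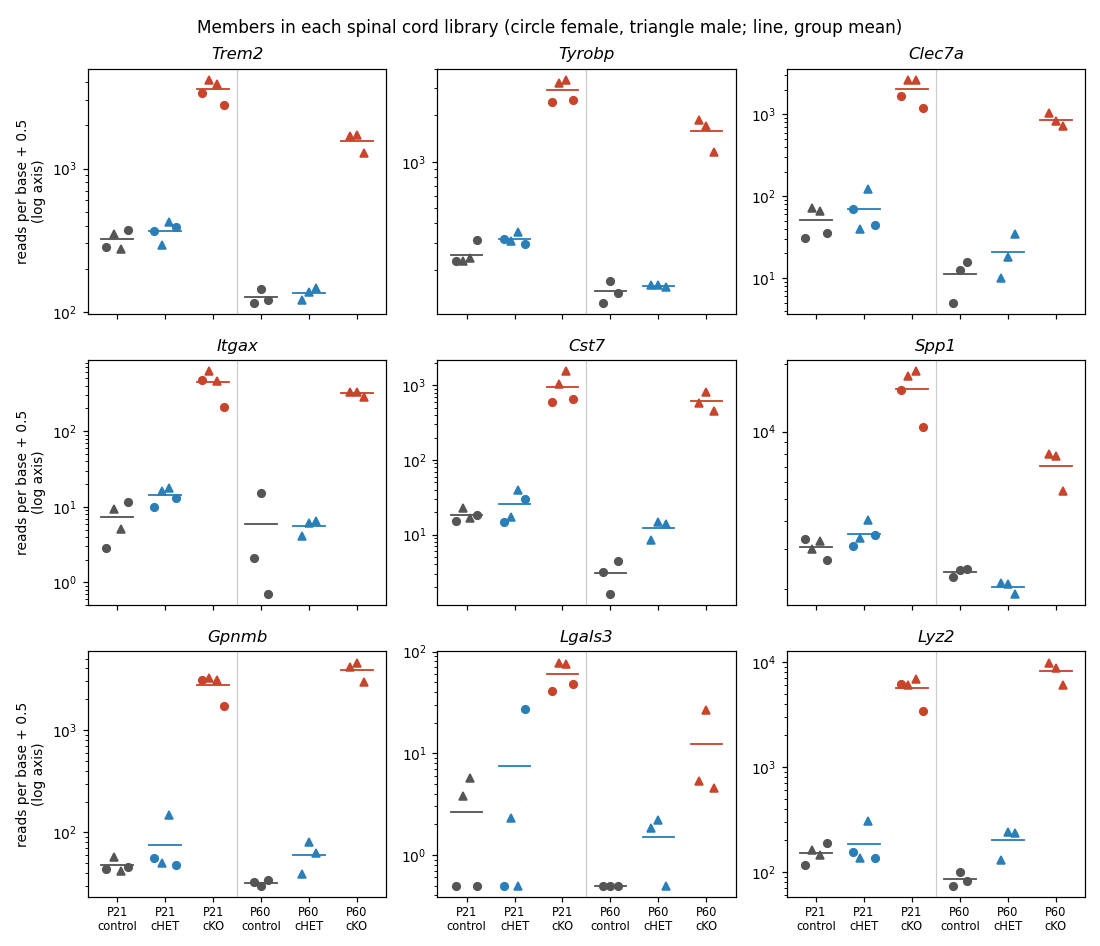
Reads per base (plus 0.5, log axis) of each gene in each of the 21 libraries, by age and genotype; circles are female, triangles male, and lines are group means. For each gene except Lgals3, the cKO libraries of an age sit above all other libraries of that age without overlap; Lgals3 cKO libraries also lie above the rest, while its control and cHET values overlap and run down to 0.

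Trem2 and Tyrobp, the receptor and its adaptor, rose by similar amounts. At P21 the control libraries held Trem2 at 282, 348, 275 and 374, the cHET libraries at 368, 291, 422 and 388, and the cKO libraries at 3394, 4173, 3917 and 2792. Control and cHET overlapped, and the lowest cKO library was far above both. The rise over cHET was 3.28 ± 0.14 (9.69-fold, adjusted p = 1.8e-09). At P60 the control libraries held it at 115, 143 and 120, the cHET libraries at 121, 137 and 146, and the cKO libraries at 1691, 1707 and 1281, a rise of 3.52 ± 0.13 (adjusted p = 3.0e-08). For Tyrobp the P21 control libraries gave 228, 226, 237 and 309, the cHET libraries 317, 307, 352 and 292, and the cKO libraries 2460, 3234, 3411 and 2530. Its rise over cHET was 3.18 ± 0.12 (adjusted p = 6.4e-10). Its P60 levels were 122, 169 and 142 (control), 159, 159 and 154 (cHET), and 1870, 1714 and 1156 (cKO), and the rise was 3.29 ± 0.17 (adjusted p = 2.0e-07). Across the 21 libraries, with each age centred on its own mean, Trem2 and Tyrobp correlated at r = 0.996. This r describes libraries that share genotype and batch, and it mostly reflects the gap between cKO and the rest. Within groups the order of libraries differed: among P21 cKO libraries the lowest was cKO 4 for Trem2 and cKO 1 for Tyrobp.

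Downstream of the receptor pair, 13 of 18 genes for TREM2 and TYROBP signalling rose at P21 and 11 of 18 at P60, with none lower and medians of 1.65 and 1.43. Vav1, a guanine nucleotide exchange factor, rose by 2.41 at P21 and by 2.18 at P60. Blnk, a linker between SYK and phospholipase C, rose by 2.41 and 2.69, and Plcg2, that phospholipase, by 1.57 and 1.2. The rises at P21 of the receptor and adaptor were larger than those of all 18. Among 9 TREM2 ligand and shedding genes, 3 rose and 1 fell at P21 and 4 rose at P60 (medians 0.15 and 0.24). Apoe, a lipoprotein bound by TREM2, had a mean of 159730 ± 10732 (SD, n = 4) in P21 cKO mice against 48707 ± 4301 in cHET, and rose by 1.72 at P21 and by 2.87 at P60. Clu, another lipoprotein component, rose by 0.78 and 0.86. The gene that fell at P21 was Anxa5 (-0.26), named after its value was seen. A list drawn up for receptors that use TYROBP or the related FcR gamma chain also held that chain (Fcer1g). It held Csf1r and Itgam too, which are among the myeloid reference genes used below. Of the genes of this list, 7 of 9 tested rose at P21. At P60, 6 of 7 rose and Siglech fell. Fcer1g, the FcR gamma chain itself, rose by 2.99 and 2.75. Siglech, a microglial sialic acid receptor, went from 0.62 at P21 to -0.87 at P60, and both passed.

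Clec7a and Itgax were low in control cord and rose steeply. Clec7a encodes dectin-1, a lectin receptor for beta-glucans that signals through SYK. Control libraries at P21 gave 30.8, 71.7, 65.0 and 35.1, the cHET libraries 70.1, 39.8, 122 and 43.6, and the cKO libraries 1699, 2617, 2648 and 1212. The P60 levels of Clec7a were 4.52, 12 and 15.2 (control), 9.62, 17.5 and 34.6 (cHET), and 1051, 826 and 717 (cKO). Control and cHET overlapped at both ages and cKO stood apart. The P21 rise of Clec7a over cHET was 4.96 ± 0.37 (adjusted p = 2.2e-07), and the P60 rise 5.53 ± 0.47 (adjusted p = 8.4e-06). Itgax encodes the integrin CD11c, which pairs with the beta-2 chain. The P21 control libraries gave 2.39, 8.98, 4.66 and 11.2, the cHET libraries 9.58, 15.6, 17.2 and 12.6, and the cKO libraries 471, 622, 461 and 210. Its P60 levels were 1.63, 14.6 and 0.20 (control), 3.59, 5.64 and 6.06 (cHET), and 334, 327 and 286 (cKO). Here too cKO stood apart while the other groups overlapped. The P21 rise of Itgax over cHET was 4.88 ± 0.42 (adjusted p = 9.7e-07), and the P60 rise 5.84 ± 0.83 (adjusted p = 4.0e-04).

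The partners of Itgax rose with it but by less. Of 8 beta-2 integrin and partner genes, 7 rose at P21 and 6 at P60, with none lower and medians of 1.65 and 1.63. Itgb2, the beta-2 chain, rose by 3.03 ± 0.21 and 2.68 ± 0.29. Icam1, a ligand of these integrins, rose by 1.51 and 1.88, and Fermt3, which activates them, by 1.92 and 1.91.

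Spp1, which encodes the secreted adhesion protein osteopontin, had the highest level of the 9 genes in every group but P60 cKO and the smallest rise. Control libraries at P21 gave 3351, 3027, 3263 and 2691, the cHET libraries 3109, 3363, 4062 and 3463, and the cKO libraries 15322, 17680, 18564 and 10481. At P60 the levels were 2258, 2422 and 2454 (control), 2135, 2107 and 1900 (cHET), and 7954, 7782 and 5474 (cKO). All cKO libraries were above all others of their age. The P21 rise over cHET was 2.12 ± 0.15 (4.35-fold, adjusted p = 9.7e-08), and the P60 rise 1.77 ± 0.12 (adjusted p = 1.8e-06). Unlike the other genes, Spp1 is also known to be expressed by spinal motor neurons. Of 8 motor neuron markers, 0 passed at P21, where 3 had an unadjusted p under 0.05 by limma (Nefh -0.25, Chodl -0.43 and Calca -0.31), and at P60 only Calca rose (1.10). The summed motor neuron markers ran from 51569 to 63957 in P21 cHET and from 44722 to 51863 in P21 cKO libraries, and their part in the Spp1 values was not tested. Of 11 osteopontin receptor and regulator genes, 4 rose and 1 fell at P21, and 6 rose and 2 fell at P60. Cd44, a receptor for osteopontin and hyaluronan, rose by 1.12 and 1.78. Mmp12, a macrophage elastase, rose by 3.41 and 2.01. Itgb3, the beta-3 chain of an osteopontin receptor, fell by 1.5 at P21 and by 1.18 at P60, and Itgav, its partner, fell by 0.34 at P60 (named after its value was seen).

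Lgals3 encodes galectin-3, a secreted lectin that binds damaged lysosomes and myelin debris. Control libraries of P21 gave 0, 3.33, 5.23 and 0, the cHET libraries 0, 1.79, 0 and 26.4, and the cKO libraries 40.2, 77.4, 74.3 and 47.8. One cHET library was well above the others of its group but still below every cKO library. The rise over cHET was 4.87 ± 1.15 (adjusted p = 0.0068), the least precise of the 9. Lgals3 passed the filter on low values at P21 only through the cKO libraries, so some difference there was built in by the filter. At P60 Lgals3 was listed at 0 in all 3 controls, at 1.34, 1.70 and 0 in cHET, and at 4.84, 26.3 and 4.07 in cKO mice, and it did not pass the filter. In the authors' deposited table the Lgals3 effect over cHET was 4.37 (SE 0.33, q = 9.0e-37) for P21, where 13% of genes were called higher, and 4.45 (SE 0.27, q = 5.6e-59) for P60, where 13.6% were. Among 7 other galectin genes 3 rose at each age. Lgals3bp, a galectin-3 binding glycoprotein, rose by 2.76 and 1.94, Lgals9 by 1.29 and 0.59, and Lgals1 by 0.87 and 1.01.

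The lysosomal genes Cst7, Lyz2 and Gpnmb rose by 4.97 to 6.03. Cst7 encodes cystatin F, an inhibitor of lysosomal cysteine proteases. The P21 control libraries gave 14.9, 22.5, 16.2 and 17.9, the cHET libraries 14.2, 16.6, 39.5 and 29.9, and the cKO libraries 592, 1036, 1551 and 659. Its P60 levels were 2.67, 1.09 and 3.99 (control), 8.08, 14.4 and 13.3 (cHET), and 576, 804 and 457 (cKO). At P60 all 3 groups were apart, and at P21 control and cHET overlapped. The P21 rise over cHET was 5.24 ± 0.34 (adjusted p = 4.7e-08), and the P60 rise 5.63 ± 0.38 (adjusted p = 1.6e-06). The proteases that cystatins inhibit rose as well: 8 of 9 cystatin and target genes at each age, with none lower and medians of 1.08 and 1.16. Ctsc, which cystatin F is known to inhibit, rose by 2.29 and 2.11, Ctss by 2.85 and 2.56, and Ctsl by 1.08 and 1.33.

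Lyz2 encodes the lysozyme of macrophages. The P21 control libraries gave 115, 162, 144 and 188, the cHET libraries 156, 137, 305 and 136, and the cKO libraries 6207, 6005, 6890 and 3393. Its P60 levels were 73.9, 99.3 and 81.7 (control), 129, 238 and 237 (cHET), and 9832, 8721 and 6051 (cKO), again with all 3 groups apart. The P21 rise of Lyz2 over cHET was 4.97 ± 0.26 (adjusted p = 6.9e-09), and the P60 rise 5.37 ± 0.24 (adjusted p = 1.0e-07). Its near-identical neighbour Lyz1, the only other lysozyme gene tested, rose too (2.58 and 3.07) but reached only 8.33 to 25.6 in P21 cKO libraries, and the split of reads between the pair is uncertain. At P60 the other lysozyme genes together had a median of 3.38 in control and 3.26 in cHET libraries. Lyz1 thus passed the filter on low values there only with the cKO libraries, so some of its P60 difference was built in. Gpnmb encodes a glycoprotein of melanosomes and lysosomes. The P21 control libraries gave 43.3, 57.6, 41.6 and 45.6, the cHET libraries 55.9, 49.6, 147 and 47.3, and the cKO libraries 3055, 3192, 3083 and 1720. Its P60 levels were 32.2, 29.8 and 33.6 (control), 38.4, 79.5 and 62.7 (cHET), and 4131, 4555 and 2923 (cKO), with all 3 groups apart. Its rises of 5.33 ± 0.31 (40.1-fold, adjusted p = 1.6e-08) and 6.03 ± 0.24 (65.4-fold, adjusted p = 4.1e-08) were the highest of the 9 tested at P21 and the 8 tested at P60. Its intervals overlapped with those of Clec7a, Itgax, Cst7 and Lyz2 at both ages, and with that of Lgals3 at P21. Of the Gpnmb relatives and MiT/TFE factors, lysosomal regulators that act on Gpnmb, 5 of 7 rose at P21 and 4 of 6 at P60. Pmel, its closest relative, rose by 1.63 and 1.44, and Sdc4, a proposed Gpnmb partner, by 0.55 at both.

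**Figure D2:**
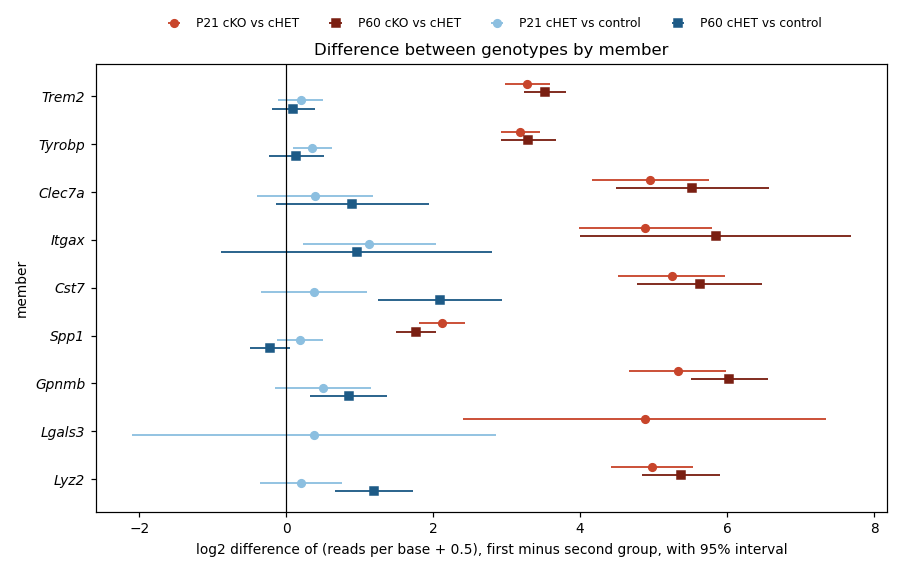
Log2 difference of (reads per base + 0.5) with its 95% interval for each gene, for cKO against cHET and for cHET against control at each age; Lgals3 has no P60 value. The cKO against cHET points lie between 1.77 and 6.03, and the cHET against control points between -0.22 and 2.09.

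The order of the levels also changed. In P21 controls Spp1 (3083 ± 295, SD, n = 4) was first, then Trem2 (320 ± 48.8), Tyrobp (250 ± 39.8), Lyz2 (152 ± 30.5), Clec7a (50.7 ± 20.7), Gpnmb (47.0 ± 7.25), Cst7 (17.9 ± 3.30), Itgax (6.81 ± 4.02) and Lgals3 (2.14 ± 2.59). Within that order, Trem2 overlapped with Tyrobp, Clec7a with Gpnmb and Itgax with Lgals3. Among P21 cKO libraries Lyz2 (5624 ± 1535) was second after Spp1 (15512 ± 3622), and from Lyz2 down each gene overlapped with the next as far as Itgax (441 ± 171), which lay above Lgals3 (59.9 ± 18.7). In P60 cKO libraries Lyz2 (8201 ± 1943, n = 3) and Spp1 (7070 ± 1385) overlapped at the top and Gpnmb (3870 ± 847) came next, above Tyrobp (1580 ± 375) and Trem2 (1560 ± 241). Out of 25127 genes, Lyz2 ranked 11628 from the top in P21 controls and 806 in P21 cKO mice, and 11046 and 119 at P60. Gpnmb went from rank 13733 to 2050 at P21 and from 13065 to 425 at P60.

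Other genes of the program rose with these 9. Of 31 further disease-associated microglia genes, 27 rose at P21 and 26 at P60, with Fth1 lower at each age (-0.33 and -1.26, named after its values were seen) and medians of 1.97 and 2.20. Among them Cd68, a lysosomal membrane protein, rose by 3.42 and 4.03, Lpl, a lipoprotein lipase, by 3.18 and 2.67, and the cathepsins Ctsd and Ctsz by 2.42 and 2.61 at P21 and by 2.19 and 2.20 at P60. These lists were drawn up with earlier results of these data known and are described by counts only.

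Homeostatic microglia genes did not fall as a group when cKO was compared directly with cHET. Of 23 tested, 16 rose and 2 fell at P21, and 15 rose and 5 fell at P60, with medians of 0.65 and 0.77. These medians were below the 2.32 and 2.04 of 8 genes that mark myeloid cells in general (below). The list was not counted relative to those genes, and it shares Csf1r with them. Cx3cr1, the fractalkine receptor, rose by 1.69 and 1.63, and Csf1r, the receptor for colony-stimulating factor 1, by 1.80 and 1.41. The 2 that fell at P21 were Slc2a5 (-0.70) and P2ry12 (-0.43). The 5 that fell at P60 were Tmem119 (-1.76), P2ry12 (-1.15), Slc2a5 (-1.06), Siglech (-0.87) and Sall1 (-0.42). Apart from Siglech, these were named after their values were seen.

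Each list of markers of other leukocytes had a lower median than the 9 genes, though single markers rose strongly. The medians of the 4 lists ran from -0.11 (lymphocyte) to 0.52 (border macrophage) at P21. At P60 they ran from -0.23 (monocyte and dendritic cell) to 1.49 (neutrophil, 2 genes tested, with Mmp8 entering only through its cKO libraries). Of the border macrophage markers, 3 of 10 rose at P21 (Ms4a7 by 2.92, Stab1 by 1.21 and Folr2 by 0.87) and 2 of 8 at P60 (Ms4a7 by 4.05 and Folr2 by 2.5). Mrc1, Cd163 and Lyve1, which define these cells, did not pass at either age. The summed border macrophage markers ran from 377 to 531 in P21 cHET and from 735 to 884 in P21 cKO libraries, and from 205 to 289 and from 391 to 483 at P60. Of the monocyte and dendritic cell markers, 3 rose and 1 fell of 10 at P21, and 2 rose and 2 fell of 8 at P60. Their sums ran from 4283 to 5071 in P21 cHET and from 7473 to 9343 in P21 cKO libraries, and from 2180 to 2621 and from 3514 to 4143 at P60. The genes that rose at P21 were Vcan (0.58), Fn1 (1.40) and Siglech, and Flt3 fell at both ages (-0.25 and -0.26, named after its values were seen). Vcan and Fn1, which other cells of the cord also express, made up most of the sums in cKO libraries. Chil3 reached at most 0.141 in P21 cKO libraries and Plac8 at most 3.89, and Ccr7 was listed at 0 in all of them. Ccr2 ran from 18.9 to 32.1 in P21 cKO, from 7.94 to 19.8 in cHET and from 5.31 to 22.7 in control libraries, and did not pass against cHET. None of 5 neutrophil markers passed at P21 (none had an unadjusted p under 0.05), and Mmp8 was called higher of 2 at P60. Mmp8 ran from 5.19 to 6.46 in P60 cKO, from 0 to 2.05 in cHET and from 0.89 to 2.18 in control libraries. It thus passed the filter on low values only through the cKO libraries, so some difference there was built in. Elane was listed at 0 in all cKO libraries. Of 7 lymphocyte markers Cd79b rose at P21 (1.92), and none of 5 passed at P60, where Cd8a (0.93) had an unadjusted p under 0.05. The sums of neutrophil markers were 83.8 to 147 in P21 cHET and 101 to 149 in P21 cKO libraries, and those of lymphocyte markers 78.0 to 128 and 138 to 143. Much of the neutrophil sums came from Cxcr2, which alone ran from 61.1 to 77.4 in P21 cHET and from 79.3 to 94.2 in P21 cKO libraries. The part of any of these cells in the 9 genes was not tested.

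**Figure D3:**
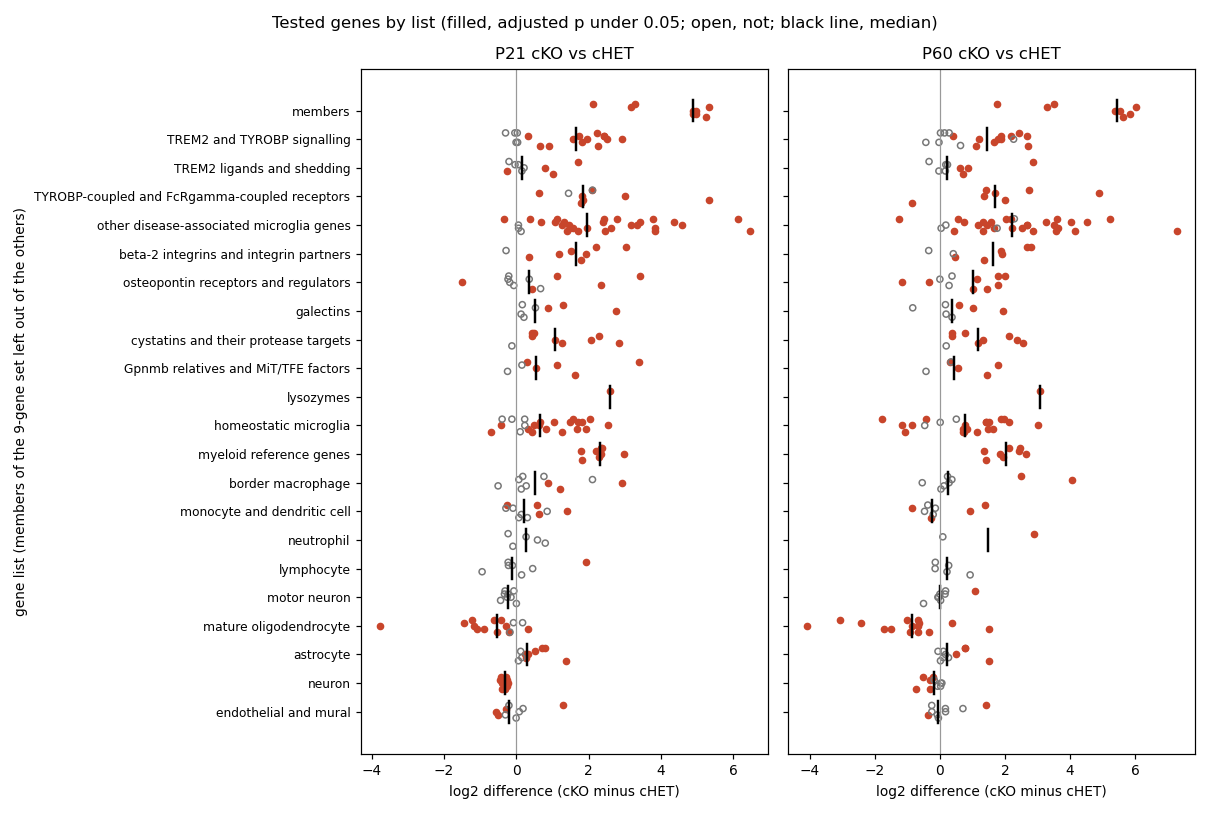
Log2 difference between cKO and cHET for every tested gene of each list at P21 (left) and P60 (right); filled points passed at an adjusted p under 0.05, open points did not, and black lines are medians. The 9 genes have the highest median of the lists at both ages, 4.88 and 5.45.

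Genes that mark myeloid cells in general rose too, and the 9 genes were next compared with them within each library. The mean log2 value of 8 such genes (Csf1r, Spi1, Irf8, Aif1, Itgam, Laptm5, Ly86 and Cyth4) was subtracted from all genes and the same test run. All 8 of these reference genes had risen against cHET, with medians of 2.32 at P21 and 2.04 at P60. For only 6 of the 8 did the per-library values give the authors' mean values at both ages. The medians of those 6 were 2.26 and 2.04. Every value relative to the reference rests on all 8, and so on some genes whose levels are uncertain. Relative to them, 8 of the 9 genes (Lgals3 among them, which entered the test only through cKO libraries) were still higher in cKO than in cHET at P21, where 0.673% of all genes were called higher and 94.9% lower. At P60 7 of 8 were higher, against 0.897% of all genes. Gpnmb was higher by 3.06 ± 0.25 at P21 and by 4.0 ± 0.21 at P60, Lyz2 by 2.71 ± 0.21 and 3.34 ± 0.20, Cst7 by 2.98 ± 0.29 and 3.59 ± 0.36, Clec7a by 2.69 ± 0.30 and 3.50 ± 0.38, and Itgax by 2.62 ± 0.36 and 3.81 ± 0.61. Trem2 (1.01 ± 0.14 and 1.49 ± 0.15) and Tyrobp (0.92 ± 0.12 and 1.26 ± 0.17) exceeded the reference genes by less. The largest adjusted p among these 7 genes was 9.0e-07 at P21 and 4.2e-06 at P60. Whether a gene marks a cell number or also responds within a cell is not known from these data, so the subtraction does not separate the 2.

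Spp1 was the exception. Relative to the reference genes it was -0.14 (95% interval -0.41 to 0.12, adjusted p = 0.28) at P21 and -0.26 (-0.58 to 0.06, adjusted p = 0.11) at P60. In each P21 library Spp1 lay above the reference mean by 3.19 to 3.67 in controls, 3.46 to 3.72 in cHET and 3.23 to 3.59 in cKO mice, so that all 3 groups overlapped. Without Csf1r or without Itgam in the reference the P60 value passed (-0.35, adjusted p = 0.040, and -0.36, adjusted p = 0.034). Against the female P60 controls Spp1 was lower relative to the reference (-0.68, 95% interval -1.0 to -0.36, adjusted p = 2.6e-04). In the same comparison 95.4% of all genes were called lower, and the other 7 tested genes were higher, against 0.927% of all genes. At P21 against control 8 of 9 were higher (0.684% of all genes) and Spp1 was -0.01 (-0.28 to 0.25). Lgals3 at P21 was 2.61 ± 1.06 relative to the reference (adjusted p = 0.025), and this call ended without P21 cHET 1 (adjusted p = 0.088), cHET 3 (0.092) or cKO 2 (0.055), and against control without P21 control 4 (0.053). A pseudocount of 5 also ended it in both comparisons (0.19 and 0.064).

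**Figure D4:**
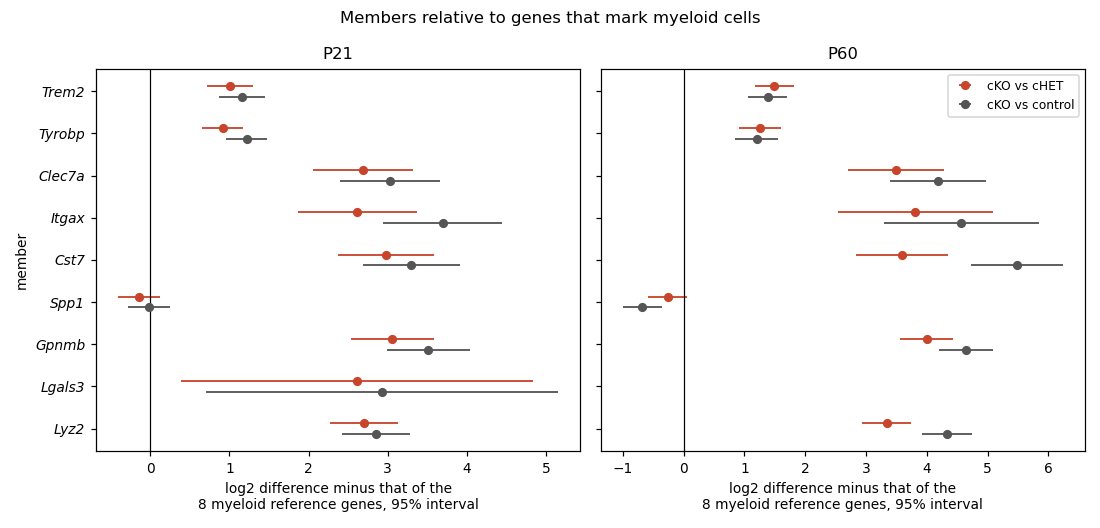
Log2 difference of each gene after subtracting the mean of 8 myeloid reference genes in each library, with 95% intervals, for cKO against cHET and against control at P21 (left) and P60 (right). Trem2 and Tyrobp lie between 0.92 and 1.49, Spp1 lies at or below 0, and the other genes lie above 2.5.

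Against this reference Trem2 was nearly constant in the knockout libraries. It exceeded the reference mean by 1.32 to 1.40 in the 4 P21 cKO libraries (SD 0.033) and by 1.26 to 1.34 in the 3 P60 cKO libraries (SD 0.041). In P21 cHET libraries the range was -0.06 to 0.56. Gpnmb ranged from 0.62 to 1.25 above the reference in P21 cKO and from 2.45 to 2.71 in P60 cKO libraries.

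The knockout libraries differed among themselves, and mostly for all genes at once. At P21 the cKO 4 library was the lowest for 6 of the 9 genes and cKO 1 for the other 3, and cKO 2 and cKO 3 held every highest value. Both of the high libraries were male and both of the low ones female. The 2 males lay above the 2 females for 7 genes, and for Itgax and Lyz2 the sexes overlapped. With 2 mice of each sex no test was run. The mean of the 8 reference genes followed the same order, at 10.3 and 10.1 (log2) in the females and 10.7 and 10.6 in the males. Among the male P60 cKO mice the cKO 3 library was the lowest for 9 of 9 genes and also had the lowest reference mean, 9.06 against 9.38 and 9.44. Its mitochondrial share was 14.6%, against 17.8% and 17.9%. At P21 the 2 low libraries held both ends of the shares. That of cKO 4 was the highest of its group (8.12%) and that of cKO 1 the lowest (6.61%), with 7.58% and 7.69% in the males. The part of depth, dissection or sex in this spread was not tested. Leaving out any 1 library changed no call of the 9 genes in the direct comparisons of cKO with cHET or with control.

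**Figure D5:**
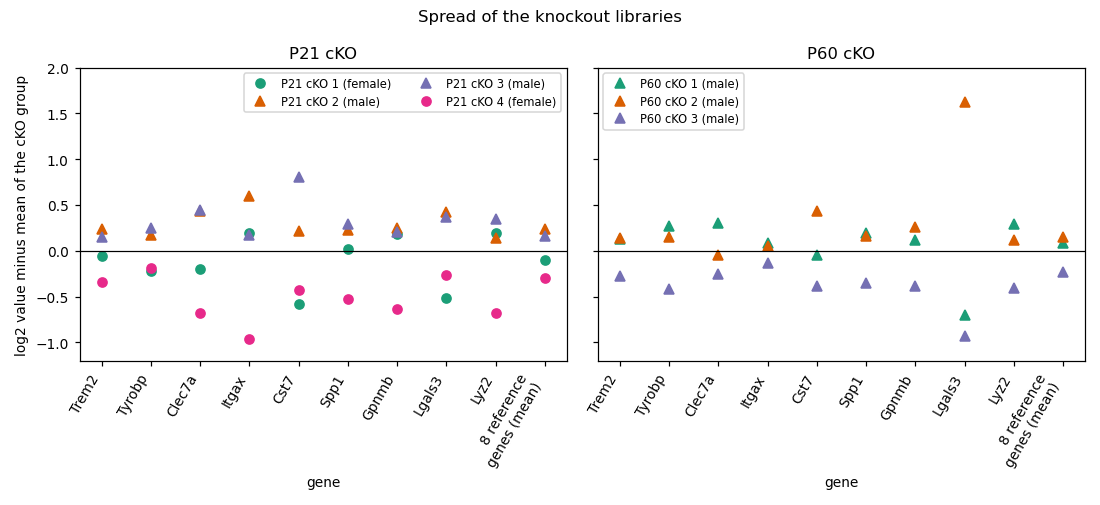
Log2 value of each gene, and of the mean of the 8 reference genes, in each cKO library minus the mean of its cKO group (circles female, triangles male). At P21 the 2 male libraries lie above 0 for every gene, and at P60 the cKO 3 library lies below the other 2 for every gene.

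The comparison of cHET with control covers both the presence of Cnp-Cre, which controls lack, and 1 floxed Tardbp allele on which it can act, and Tardbp itself did not pass in it. At P60 this comparison also carries sex and age, since the controls were female and 74 days old and the cHET mice male and 60 to 65. These cannot be told apart from genotype there. At P21 none of the 9 genes passed, where 0.0111% of all genes were called, and all 9 overlapped, where 5.13% of all genes did not. At an unadjusted p under 0.05 there were 2, Tyrobp (0.35, 95% interval 0.09 to 0.62, adjusted p = 0.58) and Itgax (1.13, 0.22 to 2.03, adjusted p = 0.64), where 7.14% of all genes had such a p. The authors' deposited table called none of the 9 either, and there 0.193% of genes had q under 0.05. The cHET 3 library was the highest of its group for 8 of the 9 genes. At P60 none of 8 passed, and 0.0178% of all genes were called. There 3 genes had an unadjusted p under 0.05, against 5.42% of all genes, and were higher in all 3 cHET than in all 3 control libraries, against 6.17% of all genes. These were Cst7 (2.09 ± 0.38, adjusted p = 0.34), Lyz2 (1.2 ± 0.24, adjusted p = 0.48) and Gpnmb (0.85 ± 0.24, adjusted p = 0.69). In the authors' deposited table none of the 9 passed (0.0827% of genes did), and the q was 0.067 for Cst7 and 0.11 for Lyz2. Spp1 was lower without overlap (-0.22, 95% interval -0.49 to 0.05), where 4.0% of all genes were. Trem2 (0.10, -0.19 to 0.39) and Tyrobp (0.14, -0.23 to 0.51) overlapped. Relative to the reference genes none of 8 passed (4 had an unadjusted p under 0.05, and 0.0178% of all genes were called). There Cst7 (1.89) and Lyz2 (0.99) each had an adjusted p of 0.13. Cst7 passed without P60 control 1 (adjusted p = 0.021), cHET 1 (0.012) or cHET 3 (0.048), and Lyz2 without cHET 1 (0.0011).

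Finally, the difference between genotypes was compared between the 2 ages, as the P60 minus the P21 difference in a fit of all 6 groups. The P21 groups held both sexes and the P60 cHET and cKO mice were male, so sex, age and kit cannot be told apart here. Values against control also carry the female and older P60 controls. For cKO against cHET none of the 8 genes tested passed, at either an adjusted or an unadjusted p under 0.05. Among all genes 3.20% were called and 15.0% had an unadjusted p under 0.05. The values ran from -0.35 (Spp1, 95% interval -0.80 to 0.10) to 0.96 (Itgax, -1.02 to 2.94), and that of Trem2 was 0.24 (-0.20 to 0.69), so these intervals still allow differences of more than 1.5-fold. For cKO against control Cst7 rose more at P60 (2.10 ± 0.55, adjusted p = 0.029), where 2.35% of all genes were called in that direction. At an unadjusted p under 0.05 there were 4 of the 8, Cst7, Spp1, Gpnmb and Lyz2, against 16.8% of all genes. This call ended without P21 control 2 (adjusted p = 0.062), P21 cKO 1 (0.062), P21 cKO 4 (0.060), P60 control 2 (0.10), P60 cKO 1 (0.058) or P60 cKO 2 (0.088), and with a pseudocount of 5 (0.23). Cst7 in P60 controls was at 1.09 to 3.99, near the pseudocount. Lyz2 (1.39 ± 0.40) and Spp1 (-0.75 ± 0.22) each had an adjusted p of 0.054. Lyz2 passed without P21 control 1 (0.044), P21 cHET 3 (0.022), P21 cKO 3 (0.041), P60 cHET 1 (0.036) or P60 cKO 3 (0.036), and Spp1 without P21 cKO 4 (0.0018) or P60 cKO 1 (0.046). For cHET against control none of 8 passed (2 had an unadjusted p under 0.05, against 5.17% of all genes), and no gene of the table was called.

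The genes whose pattern was most like that of the 9 were then ranked. Over the 21 libraries, centred within each age, the 10 genes out of 16562 with the highest r to the mean of the 9 were C3ar1, Plek, C1qa, C1qb, Myo1f, Fcer1g, C1qc, Vim, Ctss and Apobec1, with r from 0.996 down to 0.992. C3ar1 is the receptor for the complement fragment C3a, and C1qa, C1qb and C1qc make up complement C1q. C3ar1 was 3.74 higher in cKO than in cHET at P21 and 3.71 higher at P60, and C1qa 2.81 and 2.91. The r of each of the 9 to the mean of the other 8 ran from 0.991 (Trem2) down to 0.955 (Itgax) and 0.804 (Lgals3). These r cannot be set against those of the 10 genes, which were picked as the highest of 16562 and scored against another mean. Within the set, the closest pairs were Gpnmb with Lyz2 and Trem2 with Tyrobp, each at r = 0.996. Lgals3, whose values are uncertain, was the least like the others (0.776 to 0.821). Such r values are a description of libraries that share genotype, age, kit and scaling.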

How the data were processed

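Spinal cord RNA of 21 mice was measured by RNA sequencing. Per the submitters' processing notes, the tools included kallisto 0.43.0 and sleuth 0.28.1 with GRCm38; the sources used here do not give their roles. The deposited signal is normalized scaled reads per base, per gene and library. Per the file headers, the deposited comparison tables give each gene's effect and mean on the natural log scale (effects were converted here to log2), its standard error, and its p-value and q-value.

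The authors' scaling was kept and log2(value + 0.5) analysed. Testing required a value of 5 or more in 4 (P21) or 3 (P60) libraries. One limma-trend model (limma 3.58.1, R 4.3.3) covered all 3 genotypes at each age. Tests were 2-sided, adjusted by Benjamini and Hochberg over all genes, with a threshold of 0.05. Every adjusted p in the text is from limma. SDs are of untransformed values. The script was tested on simulated data. Each mouse gave 1 library.

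The members and lists were chosen with earlier results of these data known. All 9 members were named in every comparison. From each list up to 3 genes with the smallest p at P21 and up to 2 at P60 (cKO against cHET) were eligible, and some of these are not printed. The TGACTCA search was added after the data were seen. Gene positions are from GENCODE M21.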

Additional observations from a re-analysis of the deposited data

Results flagged for a closer look

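Single libraries of a group of 4 lay far from the other 3, by Dixon's ratio at its 95% critical value, in 5 of the 27 combinations of a member and a P21 group; chance alone flags about 1 in 20 groups, and these combinations share libraries and are not independent. Tyrobp was at 309 in P21 control 4 and at 226 to 237 in the other controls. Gpnmb was at 147 in P21 cHET 3 and at 47.3 to 55.9 in the other cHET libraries, and at 1720 in P21 cKO 4 against 3055 to 3192. Lgals3 was at 26.4 in P21 cHET 4 and at 0 to 1.79 in the others. Lyz2 was at 305 in P21 cHET 3 and at 136 to 156 in the others.

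The difference between genotypes itself differed between ages for 1 member, Cst7, for cKO against control (2.10, adjusted p = 0.029, limma). Of the 65 list genes picked by their p for cKO against cHET, it differed for 10, where 3.20% of all genes were called. Because of that choice the 2 shares cannot be compared. Larger values at P60 were those of Apoe (1.16, adjusted p = 3.2e-06), Cd44 (0.66, 0.0056), Itgb1 (0.59, 9.4e-04) and Calca (1.41, 0.0020). Lower values at P60 were those of Mmp12 (-1.40, 0.038), Stab1 (-0.92, 0.015), Siglech (-1.49, 0.0053), and the oligodendrocyte genes Hapln2 (-1.85, 1.6e-08), Fa2h (-0.59, 0.0024) and Gjb1 (-0.99, 1.6e-04). Age, library kit and sex cannot be told apart in these, since the P21 groups held both sexes and the P60 cHET and cKO mice were male. The Cst7 value also carries the female P60 controls, which were older than the P60 cKO mice.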

How the results depend on the processing

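The counts of members called between cKO and cHET and between cKO and control stayed at 8 or 9 under every alternative: other pseudocounts (0.05 and 5), other filters (none, or a mean of 50 or more), other scalings (quantile, median-of-ratios), other groups in the model, weighted libraries, robust moderation, a sex term at P21, the authors' deposited q, and the omission of P60 control 1 together with P60 cHET 3. Leaving out 1 library gave 9 at P21 and 8 at P60. Without the filter, Lgals3 at P60 was 2.78 (adjusted p = 0.035, limma) against cHET, where the authors' deposited table has 4.45.

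For cHET against control at P60, relative to the reference genes, 1 member passed with a pseudocount of 5 and 1 without Spi1 in the reference, against 0; leaving out 1 library gave 0 to 2. For the age difference of cKO against control, 0 passed with a pseudocount of 5, and 3 each with a mean of at least 50, quantile scaling or array weights, against 1; leaving out 1 library gave 0 to 2. The cause was not tested.

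Small differences changed sign. Spp1 relative to the reference (P21 cKO against control) became 0.0223 with a pseudocount of 5, 0.11 without Irf8, 0.0055 without Aif1, 0.0123 without Ly86 and 0.16 without Ly86 and Irf8, the last chosen after seeing the data; leaving out 1 library gave -0.11 to 0.0624. For cHET against control at P21, Lgals3 became -0.37 with array weights. Leaving out 1 library gave -0.88 to 1.04 for Lgals3 and -0.0717 to 0.32 for Lyz2, and relative to the reference -0.97 to 1.02 and -0.0842 to 0.29. At P60, without control 1 and cHET 3, Trem2 became -0.0234 and Clec7a -0.0561. Leaving out 1 library gave -0.0471 to 2.17 for Itgax, and relative to the reference -0.16 to 1.89 for Itgax and -0.20 to 0.0224 for Tyrobp. For age differences, leaving out 1 library gave -0.0247 to 0.32 for Tyrobp (cKO against cHET), -0.24 to 0.11 for Tyrobp and -0.21 to 2.0 for Itgax (cKO against control), and -1.17 to 1.04 for Itgax (cHET against control). Itgax became -0.0176 with a pseudocount of 5 (cKO against control) and 0.25 with 0.05 (cHET against control), and Clec7a became -0.44 without P60 control 1 and cHET 3 (cHET against control).

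No paired analysis was possible because every mouse has its own number and the replicate numbers only name libraries. With 3 or 4 libraries a group and no read depth, small differences could not be resolved for Itgax, which lay near 0 outside cKO. The same held for Lgals3 in the per-library values, which are uncertain. In the authors' deposited table the mean of Lgals3 was 231 at P21 and 154 at P60. Its standard error there for cHET against control was 0.33 and 0.27.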
